A study of Mus musculus with 9 samples.

Results

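The lysosome is described here through 38 genes of its hydrolases and membrane proteins, measured in mouse adult cardiac fibroblasts, in dedifferentiated cardiac fibroblasts and in ES cells. The genes form a list by role: 11 cathepsins, 3 other genes of lysosomal proteolysis, 8 glycosidases, 5 sulfatases and sulfamidase, 4 genes of lipid breakdown, 6 membrane and cholesterol transport genes, and the transcription factor Tfeb. Each was matched to the rows of the expression table that carry its symbol alone, and where a gene had several such rows the row with the highest mean over the 9 arrays was taken. All 38 had a row, out of 19938 genes with a row of 1 symbol, and only Arsb had more than 1 row. Each group was measured on 3 Affymetrix gene arrays with a single label. The strain given for all groups is C57BL/6. The fibroblasts are adult mouse cardiac fibroblasts. The dedifferentiated cells are adult cardiac fibroblasts after a protein-based dedifferentiation, according to the series title, and neither the proteins nor the time of treatment is given in the sources used here. The third group is labelled C57 ES cell, pluripotent cells of the early embryo kept in culture. The source label of the fibroblasts also mentions ES cells, and the titles were followed.

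Lysosomes are acidic organelles in which proteases, glycosidases, sulfatases and lipases break down material delivered by endocytosis and autophagy. Most of the soluble enzymes reach the organelle through mannose 6-phosphate tags, while LAMP proteins line its membrane and NPC1 with NPC2 moves cholesterol out of it. Many lysosomal genes carry a CLEAR element, an E-box with preferred flanking bases, which is bound by TFEB and its relatives. Loss of single enzymes causes the lysosomal storage diseases. In fibroblasts lysosomal proteases also take part in the turnover of collagen taken up from the matrix.

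The labels were checked against marker genes. Of 14 fibroblast markers, 14 were lower in the dedifferentiated cells than in the fibroblasts and 13 were lower in the ES cells, at an adjusted p under 0.05 and a difference of at least 1 log2 unit, the rule used for every call below. The mean log2 level over that list lay between 9.95 and 10.01 on the fibroblast arrays, between 5.27 and 5.39 on the dedifferentiated arrays and between 4.92 and 5.03 on the ES arrays. Of 12 pluripotency markers, 12 were higher in both. The fibroblast arrays also carried transcripts of macrophages, cells rich in lysosomes: 8 of 17 macrophage markers were lower in the dedifferentiated cells and 8 in the ES cells, and the mean log2 level over that list was 5.12 to 5.17 in the fibroblasts, 3.76 to 3.77 in the dedifferentiated cells and 3.73 to 3.87 in the ES cells. Of the defining macrophage markers, Lyz2 stood at 9.07, 8.68 and 8.81 in the fibroblasts against 3.07 to 3.39 on the other 6 arrays. Ptprc differed by -0.83 and Csf1r by -0.57 between the dedifferentiated cells and the fibroblasts, neither of them called. Of 10 endothelial markers, 5 were higher and 2 lower in the dedifferentiated cells than in the fibroblasts, and the defining Cdh5 (1.16) and Tek (1.06) were among the 5. The 2 lower were Eng (-3.675), the largest difference of the list, and Emcn (-1.364). In the ES cells 2 were higher and 2 lower, again Eng (-3.697) and Emcn (-1.506). Of 11 cardiomyocyte markers 1 was higher in each, Nppb, and Myh6 and Tnnt2 were not called. Sex-linked transcripts separated the groups as well: Xist, which silences an X chromosome in female cells, was 7.31 ± 0.074 (SD, n = 3) in the fibroblasts and 3.25 ± 0.21 in the dedifferentiated cells, while the Y-linked Eif2s3y was 3.55 ± 0.12 and 8.09 ± 0.12. The fibroblasts and the dedifferentiated cells on these arrays therefore differ in sex-linked expression in addition to their treatment, and the ES cells, at 3.15 ± 0.32 and 7.76 ± 0.25, had the levels of the dedifferentiated cells. The labels do not say that the dedifferentiated cells were made from the fibroblasts measured here, and by these transcripts the cells of the 2 groups may come from different animals. Below, rose and fell therefore compare groups of arrays and do not follow the same cells before and after treatment. What the source of the cells adds to the differences cannot be told apart from the groups. The labels do not state whether the arrays within a group stem from different animals or cultures. The p-values therefore describe the scatter among these arrays, part of which may be technical.

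In the dedifferentiated cells 16 of the 38 lysosomal genes fell relative to the fibroblasts and 2 rose. That is 42.1% of the members lower and 5.26% higher, where 10.1% of all 19938 genes were called lower and 8.79% higher in limma's moderated test with Benjamini-Hochberg adjustment over all genes. In the ES cells 15 members fell (39.5%) and 1 rose (2.63%), beside 10.4% of all genes lower and 8.85% higher. The median difference over the members was -0.67 log2 units in the dedifferentiated cells and -0.58 in the ES cells, where the median over all genes was 0.01 and 0.02. The 2 comparisons share the 3 fibroblast arrays, so their values are given side by side and not as independent evidence. Called lower in both were 14 members: Ctsb, Ctsk, Ctso, Ctss, Ctsz, Grn, Gusb, Naglu, Arsb, Sgsh, Ids, Lipa, Smpd1 and Lamp2. Ctsd and Arsa were called in the dedifferentiated cells alone and Ctsh in the ES cells alone. Cln3 rose in both and Lgmn passed the rule in the dedifferentiated cells, and the other 19 members were called in no comparison. These are bulk RNA measurements, in which fewer cells of a type and less RNA per cell cannot be told apart.

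Smaller differences were measurable for most members. By the adjusted p alone 25 members were lower and 7 higher in the dedifferentiated cells (65.8% and 18.4%), against 22.4% and 25% of all genes. In the ES cells 27 were lower and 7 higher (71.1% and 18.4%), against 22.9% and 26.1% of all genes. The 7 higher members were the same in both: Lgmn, Man2b1, Neu1, Npc1, Cln3, Mcoln1 and Tfeb. The 3 arrays of one group lay wholly below the 3 fibroblast arrays for 28 members in the dedifferentiated cells (73.7%) and wholly above them for 8 (21.1%), where 25.8% and 28.9% of all genes did so. In the ES cells 27 members lay wholly below (71.1%) and 7 wholly above (18.4%), beside 24.4% and 27.6% of all genes. Lysosomal genes are bright on the array, so the count was also set against the 9969 genes above the median level. Of the 35 members among them, which leaves out Ctsk, Ctso and Ctss, 13 (37.1%) were lower in the dedifferentiated cells. In the ES cells 12 (34.3%) were lower. The shares of these 9969 genes were 15.3% and 15.8%. The level was the mean over all arrays, fibroblasts included, so the filter is not independent of the differences counted. Arsb passed it with means of 7.3 in the fibroblasts, 4.78 in the dedifferentiated cells and 4.28 in the ES cells. A level independent of the fibroblast arrays was not tested.

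**Figure D1:**
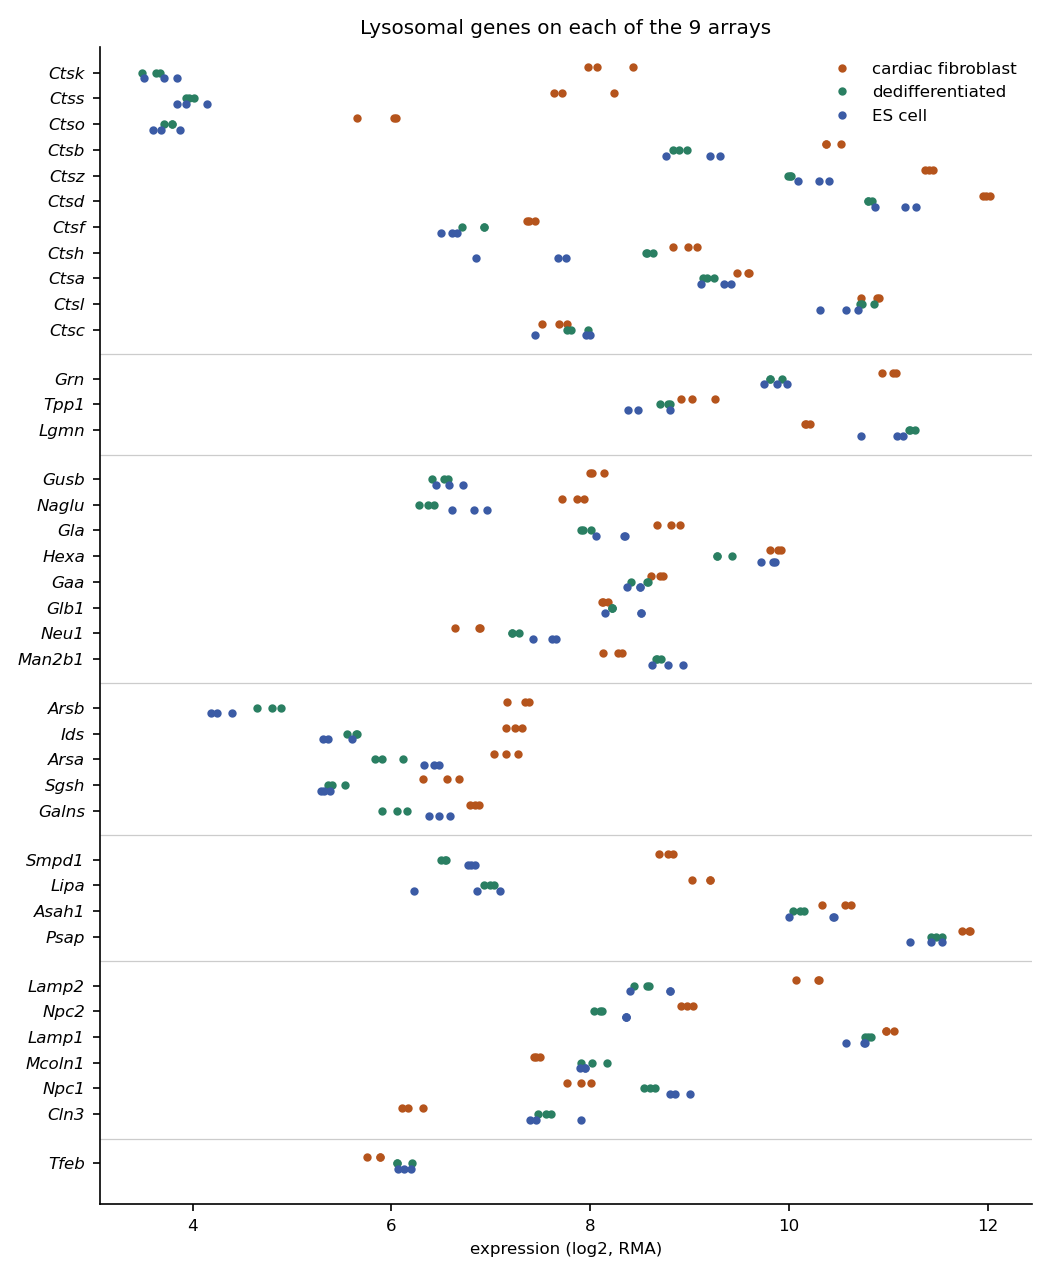
Expression of each of the 38 lysosomal genes on the 9 arrays, in log2 units of the deposited RMA values, with 1 point per array and genes ordered within each role by the difference between dedifferentiated cells and fibroblasts. For Ctsk, Ctss, Arsb, Smpd1 and Lipa the fibroblast arrays stand clear to the right of the other 6, for Cln3 they stand clear to the left, and the dedifferentiated and ES arrays lie close together for most genes. Positions of different genes along the axis are not comparable, since each gene has its own probes.

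**Figure D2:**
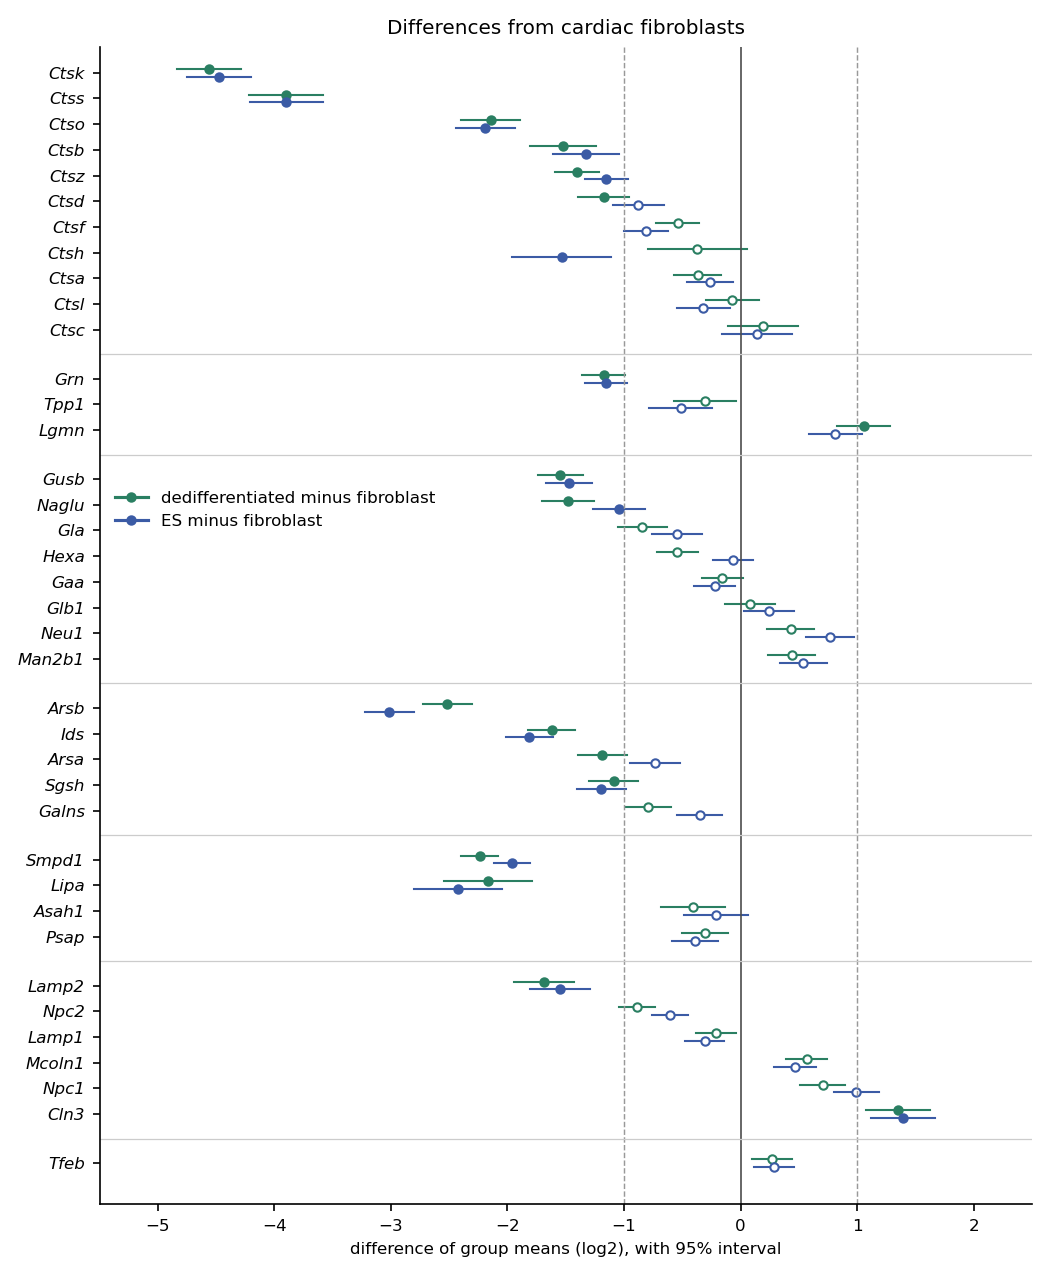
Difference of the dedifferentiated and of the ES mean from the fibroblast mean for each lysosomal gene, in log2 units, with the 95% interval of the limma fit. Filled points passed the adjusted p and 1 log2 unit, the dashed lines mark 1 log2 unit in each direction, and 16 genes have a filled point to the left in the dedifferentiated cells.

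The cathepsins, which carry out much of the breakdown of protein in the lysosome, held the members with the largest differences from the fibroblasts, Ctsk and Ctss. Of the 11, 6 fell in the dedifferentiated cells and 6 in the ES cells, with group medians of -1.17 and -1.15. Ctsk, the collagen-degrading cathepsin of osteoclasts and of activated fibroblasts, read 8.43, 7.98 and 8.07 on the fibroblast arrays. It read 3.63, 3.49 and 3.67 in the dedifferentiated cells and 3.71, 3.84 and 3.51 in the ES cells. The fibroblast arrays were all far above the other 6, which overlapped each other. The difference was -4.56 (95% interval -4.84 to -4.29, 23.7-fold, limma adjusted p = 7.74e-11) in the dedifferentiated cells and -4.47 (-4.75 to -4.20, 22.2-fold, limma adjusted p = 8.29e-11) in the ES cells. Ctss, an elastin-degrading and antigen-processing cathepsin known best from macrophages and other antigen-presenting cells, stood at 8.24, 7.64 and 7.72 in the fibroblasts. On the dedifferentiated arrays it was 4.01, 3.96 and 3.93, and on the ES arrays 4.15, 3.93 and 3.84. Again only the fibroblasts were high, by 3.90 log2 units or 14.9-fold over each of the other groups. The macrophage markers Lyz2 and Mpeg1 were lower together with Ctss, by 5.65 and 2.94 log2 units in the dedifferentiated cells, as was the list as a whole (above), and their part in the difference of Ctss and of the other members that fell was not tested.

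Ctso, a widely expressed cathepsin, was 6.05, 6.03 and 5.65 in the fibroblasts, 3.79, 3.71 and 3.79 in the dedifferentiated cells and 3.87, 3.60 and 3.68 in the ES cells. Its differences were -2.14 and -2.19. Ctsk, Ctss and Ctso fell to levels at the low end of the arrays, where RMA values flatten and a log2 difference may understate the change. Ctsb, a protease with both endopeptidase and exopeptidase activity, went from 10.37, 10.37 and 10.52 in the fibroblasts to 8.97, 8.83 and 8.89 in the dedifferentiated cells, a difference of -1.52 (2.88-fold). Its ES arrays read 8.76, 9.21 and 9.31, overlapping the dedifferentiated ones. Ctsz, a carboxypeptidase, was 11.37, 11.45 and 11.41 in the fibroblasts against 9.99, 10.02 and 10.01, a difference of -1.41, and differed by -1.15 in the ES cells. Ctsd, the aspartic protease of the lysosome, was 11.95, 11.98 and 12.02 in the fibroblasts, 10.84, 10.80 and 10.80 in the dedifferentiated cells and 10.87, 11.17 and 11.28 in the ES cells. None of its arrays overlapped between fibroblasts and the other groups. The difference passed the rule in the dedifferentiated cells at -1.17 and stayed under 1 log2 unit in the ES cells at -0.88 (limma adjusted p = 1.27e-05).

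Ctsh, an aminopeptidase, was the member whose 3 groups stood apart in a different way. It read 9.08, 8.83 and 8.98 in the fibroblasts, 8.57, 8.56 and 8.63 in the dedifferentiated cells and 6.85, 7.76 and 7.68 in the ES cells. The ES arrays were below all others, by 1.53 log2 units from the fibroblasts (limma adjusted p = 3.07e-05), while the difference between dedifferentiated cells and fibroblasts was -0.37 (limma adjusted p = 0.146). The remaining cathepsins moved by less than 1 log2 unit. Ctsf differed by -0.54 and -0.81, and Ctsa, the carboxypeptidase that also protects neuraminidase and beta-galactosidase, by -0.37 and -0.26. Ctsl, a major endopeptidase of the lysosome, differed by -0.07 (interval -0.30 to 0.16) and -0.32. Ctsc, the dipeptidyl peptidase that activates granule proteases of leukocytes, differed by 0.19 (-0.11 to 0.49) and 0.14 (-0.16 to 0.44) and passed no threshold in either comparison.

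Among the other genes of lysosomal proteolysis the directions split. Lgmn, an asparagine-specific protease that cleaves procathepsins, rose in the dedifferentiated cells. Its arrays were 10.17, 10.16 and 10.21 in the fibroblasts, 11.21, 11.27 and 11.22 in the dedifferentiated cells and 10.73, 11.09 and 11.15 in the ES cells. The fibroblasts were below all other arrays, with a difference of 1.06 (0.83 to 1.28, 2.08-fold, limma adjusted p = 3.95e-06) in the dedifferentiated cells and of 0.81 in the ES cells, the latter under the fold threshold. With each array centred on its median the first value was 0.94, under the threshold. Grn, whose product progranulin is a growth factor that is processed in the lysosome, fell. It was 10.94, 11.08 and 11.05 in the fibroblasts, 9.81, 9.81 and 9.93 in the dedifferentiated cells and 9.75, 9.88 and 9.98 in the ES cells. The differences were -1.18 and -1.16, although a further quantile normalization brought the ES value to -0.93. Tpp1, a tripeptidyl peptidase, differed by -0.31 (limma adjusted p = 0.0583) and -0.52 (0.00358), with neither called.

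Of the 8 glycosidases, enzymes that trim sugars from glycoproteins, glycolipids and glycosaminoglycans, 2 fell in each comparison, and the group medians were -0.35 and -0.14. Gusb, the beta-glucuronidase, was 8.02, 8.0 and 8.14 in the fibroblasts, 6.53, 6.41 and 6.57 in the dedifferentiated cells and 6.45, 6.58 and 6.72 in the ES cells. The fibroblasts alone were high, by 1.55 and 1.47 log2 units. Naglu, which removes N-acetylglucosamine from heparan sulfate, was 7.72, 7.94 and 7.87 in the fibroblasts, 6.28, 6.37 and 6.43 in the dedifferentiated cells and 6.61, 6.83 and 6.96 in the ES cells. Its arrays did not overlap between any groups. The differences from the fibroblasts were -1.49 and -1.04, and the ES value dropped under the fold threshold without ES replicate 1 (-0.95), without fibroblast replicate 2 (-0.99) and with array weights (-0.99). Gla, the alpha-galactosidase, differed by -0.84 and -0.54, and Hexa, the alpha chain of beta-hexosaminidase, by -0.54 and -0.07. Gaa, which degrades glycogen, differed by -0.16 and -0.22. Glb1, the beta-galactosidase whose activity is read in senescence stains, was 8.12, 8.18 and 8.13 in the fibroblasts and 8.22 on each of the 3 dedifferentiated arrays, a difference of 0.08 (-0.14 to 0.30). Man2b1, an alpha-mannosidase, and Neu1, the sialidase, lay above the fibroblasts on every other array. Man2b1 differed by 0.44 and 0.54 and Neu1 by 0.43 and 0.77, below 1 log2 unit in each case.

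The sulfatases and sulfamidase, which take sulfate from glycosaminoglycans and sulfatides, had values below the fibroblasts in all 5 genes, with medians of -1.19 in each comparison. Of the 5, 4 fell in the dedifferentiated cells and 3 in the ES cells. Arsb, which desulfates dermatan and chondroitin sulfate, was 7.34, 7.16 and 7.39 in the fibroblasts, 4.80, 4.89 and 4.65 in the dedifferentiated cells and 4.40, 4.19 and 4.25 in the ES cells. The groups did not overlap, and the differences were -2.52 (5.72-fold, limma adjusted p = 1.18e-09) and -3.01 (8.07-fold, limma adjusted p = 2.45e-10). Its second row gave group means of 6.70, 4.71 and 4.39 in the same order. Ids, the X-linked iduronate sulfatase, was 7.24, 7.15 and 7.31 in the fibroblasts, 5.65, 5.55 and 5.64 in the dedifferentiated cells and 5.31, 5.60 and 5.36 in the ES cells, with differences of -1.62 and -1.81. Sgsh, which acts on heparan sulfate, read 6.32, 6.68 and 6.56 against 5.53, 5.40 and 5.36 and against 5.38, 5.32 and 5.29. It fell by 1.09 and 1.19 log2 units. Arsa, which acts on sulfatide, was 7.03, 7.15 and 7.27 in the fibroblasts, 5.84, 6.12 and 5.91 in the dedifferentiated cells and 6.33, 6.43 and 6.48 in the ES cells. All 3 groups stood apart, and the difference passed the rule in the dedifferentiated cells at -1.19 and did not in the ES cells at -0.73. Galns, which desulfates keratan sulfate, differed by -0.79 and -0.35.

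Ids, Lamp2 and Gla are the 3 members on the X chromosome. Since Xist was high only in the fibroblasts, the X-linked genes as a whole are given beside them. Of 739 X-linked genes 12.4% were lower in the dedifferentiated cells than in the fibroblasts and 11.8% higher, with a median of -0.03, and 11.6% were lower and 10.1% higher in the ES cells.

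Lipid breakdown was represented by 4 genes, of which 2 fell in each comparison. Smpd1, the acid sphingomyelinase, was 8.78, 8.69 and 8.83 in the fibroblasts, 6.55, 6.50 and 6.54 in the dedifferentiated cells and 6.80, 6.77 and 6.84 in the ES cells. No arrays overlapped between the groups, and the SDs were 0.071, 0.026 and 0.036. The differences were -2.24 (-2.40 to -2.08, 4.72-fold, limma adjusted p = 2.31e-10) and -1.96 (3.9-fold, limma adjusted p = 6.69e-10). Lipa, the acid lipase that hydrolyses cholesteryl esters and triglycerides, was 9.21, 9.03 and 9.21 in the fibroblasts and 7.03, 6.99 and 6.93 in the dedifferentiated cells. Its ES arrays were more scattered, at 6.23, 6.86 and 7.09. The differences were -2.17 (4.49-fold) and -2.42 (5.37-fold). Asah1, the acid ceramidase that acts on the product of sphingomyelinase, differed by -0.41 and -0.21, and Psap, precursor of the saposins that present lipids to the enzymes, by -0.31 and -0.39.

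The membrane and cholesterol transport genes went in both directions, with medians of 0.18 and 0.08 over the 6. Lamp2, a membrane glycoprotein needed for fusion of autophagosomes with lysosomes, was 10.29, 10.07 and 10.30 in the fibroblasts, 8.57, 8.44 and 8.59 in the dedifferentiated cells and 8.40, 8.80 and 8.80 in the ES cells. It fell by 1.69 log2 units (3.21-fold) in the dedifferentiated cells and by 1.55 in the ES cells. Its relative Lamp1 read 11.06, 10.98 and 10.98, then 10.77, 10.80 and 10.83, and then 10.57, 10.76 and 10.77, so that its arrays were separated from the fibroblasts by only -0.21 and -0.31. Cln3, a membrane protein mutated in juvenile Batten disease, was the only member called higher in both comparisons. It read 6.32, 6.11 and 6.17 in the fibroblasts, 7.48, 7.61 and 7.56 in the dedifferentiated cells and 7.40, 7.46 and 7.91 in the ES cells. The fibroblast arrays were all below the other 6, with differences of 1.35 (1.08 to 1.63, 2.55-fold, limma adjusted p = 2.35e-06) and 1.39 (1.12 to 1.67, limma adjusted p = 1.75e-06). The cholesterol pair diverged. Npc1, the membrane transporter, was 7.77, 8.01 and 7.91 in the fibroblasts, 8.54, 8.6 and 8.65 in the dedifferentiated cells and 8.80, 8.85 and 9.01 in the ES cells. Its differences were 0.70 and 0.99, the second just under the threshold and at or above it, up to 1.07, under 5 alternative settings. Npc2, the soluble cholesterol carrier, lay on the other side, at -0.89 and -0.61. Mcoln1, the calcium channel of the lysosomal membrane, was 7.50, 7.44 and 7.46 in the fibroblasts against 7.91, 8.02 and 8.17 and against 7.95, 7.90 and 7.95, with differences of 0.57 and 0.47.

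Tfeb, the transcription factor for lysosomal genes, was 5.89, 5.89 and 5.76 in the fibroblasts, 6.06, 6.21 and 6.06 in the dedifferentiated cells and 6.13, 6.07 and 6.20 in the ES cells. The fibroblasts were lowest, by 0.27 (limma adjusted p = 0.0145) and 0.29 (0.0092), and neither value reached 1 log2 unit. The promoters were searched for the E-box CACGTG and for the CLEAR core TCACGTGA, which contains it, in RefSeq windows of GRCm38.p6 running from 250 bases before to 50 bases after each transcript start. Both motifs read the same on either strand. The table of windows held 33 of the 38 members, without Ctsb, Ctsh, Galns, Asah1 and Npc1. An E-box was found in 14 of the 33 members (42.4%) and in 8.09% of the 27025 genes of the table, and the CLEAR core in 5 (15.2%) and in 1.12%. Counted by windows of the same length, 35.9% of the 39 windows of members held an E-box and 7.15% of all 32851 windows did. The 5 members with the CLEAR core were Ctsa, Ctsd, Gla, Cln3 and Mcoln1. Of the members called lower in the dedifferentiated cells 4 of 15 (26.7%) had an E-box, namely Ctsd, Naglu, Arsa and Sgsh. Of the other members 10 of 18 (55.6%) had one. By the adjusted p alone Ctsa, Ctsf, Gla and Lamp1 of those 10 were lower too, and Lgmn, Cln3 and Mcoln1 were higher. A link between the motif and the difference was not tested. The windows of Ctsk, Ctss, Ctso, Smpd1, Arsb, Lipa and Lamp2 held none. A match is a stretch of letters and not a measured binding site.

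The 250 bases before the start are shown for 6 members, 5′ to 3′ on the strand of the gene, with E-boxes in capitals and, where the flanking bases complete it, the whole CLEAR core in capitals. Ctsk (chr3:95498960-95499209, plus strand) and Ctss (chr3:95526536-95526785, plus strand) are shown because they had the largest differences, and Ctsd (chr7:142387828-142388077, minus strand) because it fell and carries the CLEAR core. Lamp1 (chr8:13158911-13159160, plus strand) has 4 E-boxes and differed by less than any other LAMP, NPC or CLN gene here. Mcoln1 (chr8:3500269-3500518, plus strand) and the second start of Cln3 (chr7:126583237-126583486, minus strand) carry the CLEAR core and lay above the fibroblasts. The remaining members with the CLEAR core, Gla and Ctsa, are not shown and lay below the fibroblasts in the dedifferentiated cells (-0.84 and -0.37).
Ctsk: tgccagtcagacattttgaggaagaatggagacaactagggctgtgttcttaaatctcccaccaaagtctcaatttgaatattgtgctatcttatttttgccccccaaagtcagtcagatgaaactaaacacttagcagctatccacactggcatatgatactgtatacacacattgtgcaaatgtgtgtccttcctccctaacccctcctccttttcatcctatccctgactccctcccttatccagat
Ctss: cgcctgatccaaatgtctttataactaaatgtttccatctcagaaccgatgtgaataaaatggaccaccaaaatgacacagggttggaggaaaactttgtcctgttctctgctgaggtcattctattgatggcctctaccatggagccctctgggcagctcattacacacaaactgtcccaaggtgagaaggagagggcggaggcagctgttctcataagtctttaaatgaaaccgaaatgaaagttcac
Ctsd: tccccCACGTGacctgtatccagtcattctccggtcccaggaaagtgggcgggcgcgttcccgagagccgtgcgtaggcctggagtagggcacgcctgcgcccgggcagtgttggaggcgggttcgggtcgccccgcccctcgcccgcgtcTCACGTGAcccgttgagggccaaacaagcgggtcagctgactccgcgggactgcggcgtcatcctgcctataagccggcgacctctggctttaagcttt
Lamp1: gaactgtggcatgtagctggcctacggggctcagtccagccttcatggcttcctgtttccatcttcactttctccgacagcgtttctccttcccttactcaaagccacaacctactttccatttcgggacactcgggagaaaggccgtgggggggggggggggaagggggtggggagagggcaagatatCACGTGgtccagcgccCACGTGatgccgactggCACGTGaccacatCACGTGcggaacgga
Mcoln1: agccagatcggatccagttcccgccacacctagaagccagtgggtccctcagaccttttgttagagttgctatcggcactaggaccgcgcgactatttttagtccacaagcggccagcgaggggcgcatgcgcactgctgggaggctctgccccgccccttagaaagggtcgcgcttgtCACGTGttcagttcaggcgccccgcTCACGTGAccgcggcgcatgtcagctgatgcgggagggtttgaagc
Cln3: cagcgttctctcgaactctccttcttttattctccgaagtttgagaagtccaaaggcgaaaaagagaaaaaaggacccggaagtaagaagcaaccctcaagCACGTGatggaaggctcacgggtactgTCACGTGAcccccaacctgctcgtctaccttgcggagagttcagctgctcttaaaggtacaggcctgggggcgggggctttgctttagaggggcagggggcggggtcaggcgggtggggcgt
The first pair has no capitals. In Lamp1 the 4 E-boxes are centred 58, 42, 25 and 12 bases before the start, in Mcoln1 the 2 are 68 and 42 bases before it, in Ctsd 242 and 95, and in Cln3 146 and 118.

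**Figure D3:**
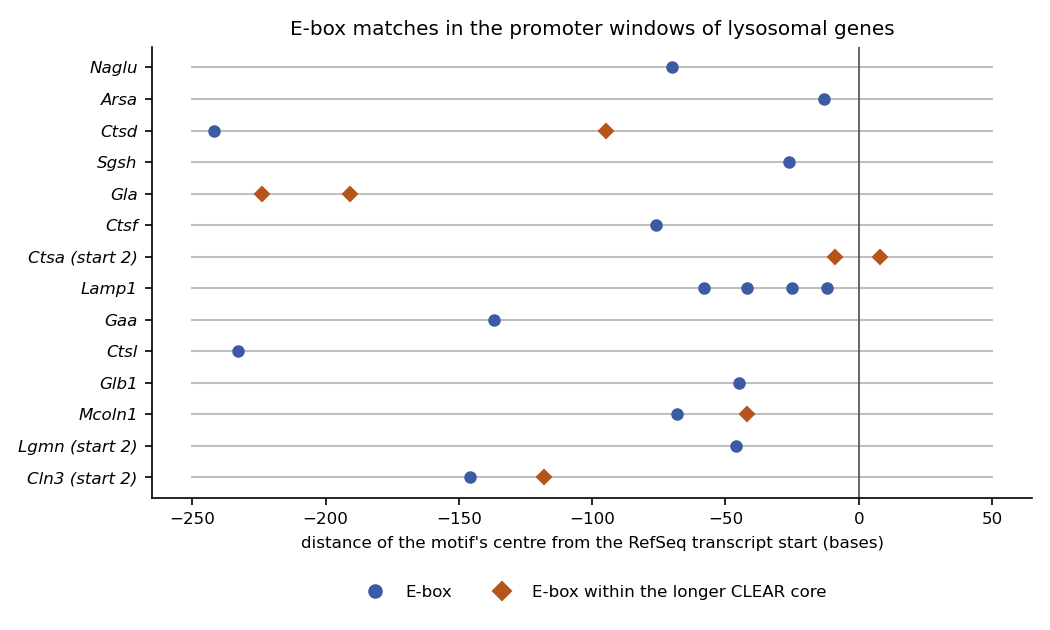
Distance in bases of each E-box from the RefSeq transcript start for the 14 lysosomal genes that have one, with genes ordered from the most negative difference between dedifferentiated cells and fibroblasts at the top. Circles are E-boxes, diamonds are E-boxes within the CLEAR core, and grey lines span the searched window. The genes at the top (Naglu, Arsa, Ctsd and Sgsh) are the 4 called lower in the dedifferentiated cells.

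Between the dedifferentiated cells and the ES cells Ctsh was the member that passed the rule. In limma's test 1 member (2.63%) was called higher and 0 lower, beside 1.01% of all genes higher and 0.547% lower, and at an unadjusted p under 0.05 5 were higher and 11 lower. The median difference was -0.06 against 0.00 for all genes. The 95% interval lay within 1 log2 unit on either side of 0 for 37 of the 38 members (97.4%), and for 96.2% of all genes. The called member was Ctsh, at 1.16 (0.74 to 1.58, limma adjusted p = 0.00138), and without ES replicate 1, whose 6.85 was the lowest of its 9 values, the difference was 0.87 and no longer passed. By the adjusted p alone 3 members were higher (7.89%: Ctsf, Ctsh and Arsb) and 9 lower (23.7%: Hexa, Gla, Naglu, Neu1, Arsa, Galns, Smpd1, Npc1 and Npc2), against 11.2% and 10% of all genes. Among the glycosidases 7 of 8 means lay below the ES cells, though the arrays of Gusb, Man2b1 and Glb1 overlapped. In 4 glycosidases all arrays lay below those of the ES cells. Over all 38 members 23 means lay below the ES cells and 15 above, and 11 members lay wholly below and 6 wholly above. The shares of all genes are not given for these counts, so whether the glycosidases stand out was not tested. Hexa differed most among the glycosidases, at -0.47 (-0.65 to -0.30, limma adjusted p = 0.00136), with 9.28, 9.28 and 9.43 in the dedifferentiated cells against 9.72, 9.84 and 9.86. Arsb was on the other side at 0.50 (0.28 to 0.71), and Arsa and Galns at -0.45 and -0.44. For the genes with the largest drop from the fibroblasts the intervals were -0.36 to 0.18 for Ctsk and -0.32 to 0.31 for Ctss. ES replicate 1 was the lowest ES array for 29 of the 38 members, and it was so for 59.5% of the 9969 genes above the median level.

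**Figure D4:**
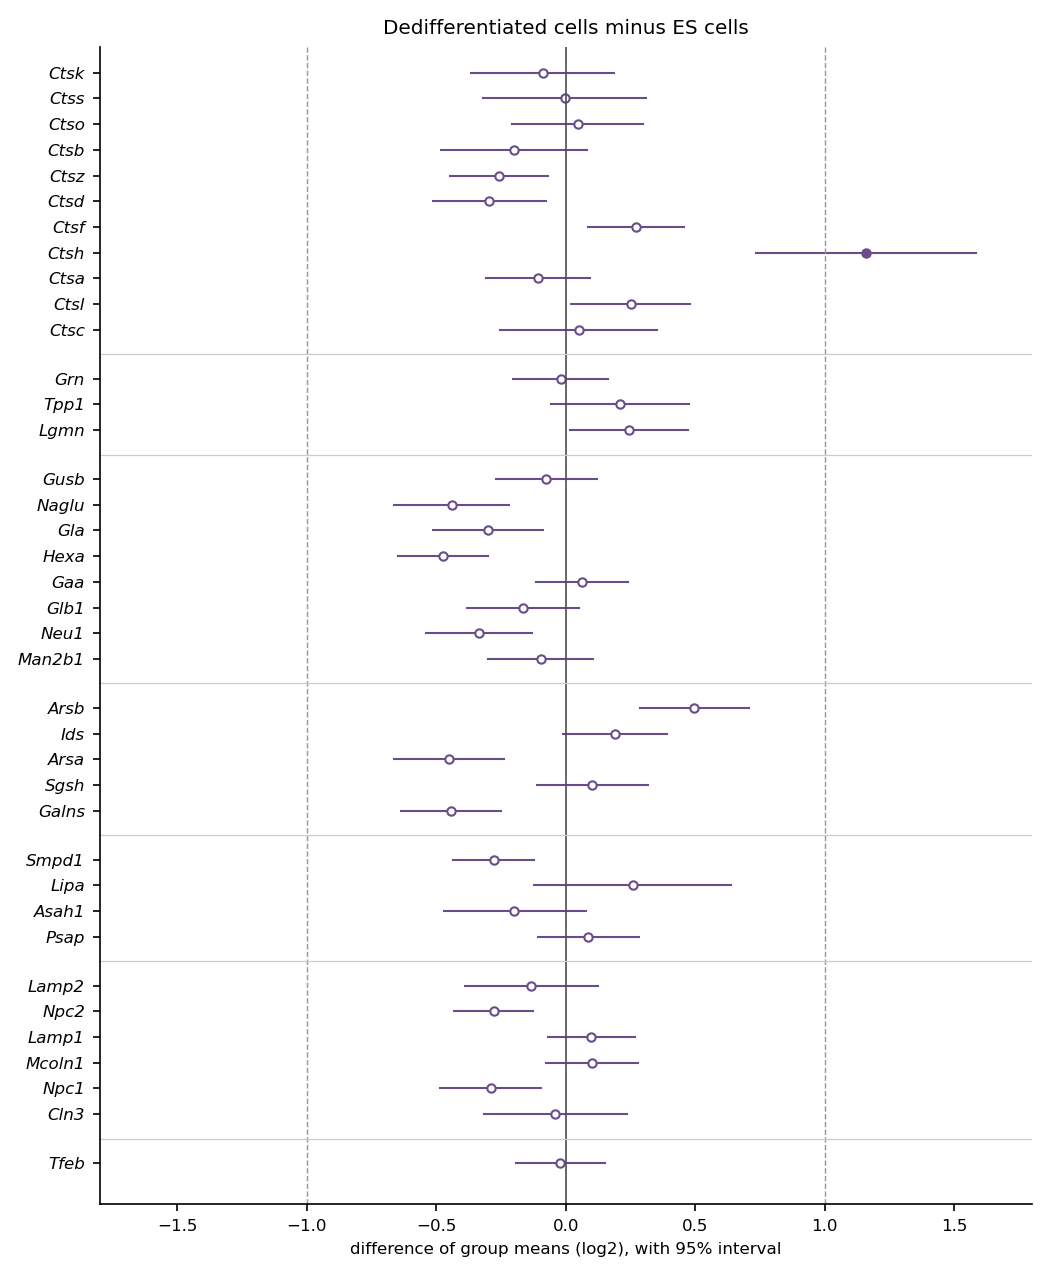
Difference of the dedifferentiated mean from the ES mean for each lysosomal gene, in log2 units, with the 95% interval. The filled point is Ctsh, the only member called, and 37 of the 38 intervals lie between the dashed lines at 1 log2 unit.

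The order of the 3 group means was lowest in the dedifferentiated cells, then ES cells, then fibroblasts for 17 members, and lowest in the ES cells with fibroblasts highest for 12. Fibroblasts were lowest for the other 9, among them Lgmn, Cln3, Npc1, Mcoln1 and Tfeb. The dedifferentiated and ES means were neighbours in this order for all 38 members. These orders were not counted over all genes. Over all rows the dedifferentiated and ES arrays were also closest, with correlations of 0.9818 to 0.9863. Correlations with the fibroblast arrays were 0.9151 to 0.9234 for the dedifferentiated cells and 0.9113 to 0.9171 for the ES cells. The difference between the dedifferentiated and ES means passed the adjusted p for 12 members, 9 of them lower and 3 higher in the dedifferentiated cells. The shares and those of all genes are given above. For the other members the difference did not pass, though for some, such as Ctsd, Ctsz and Lgmn, the dedifferentiated and ES arrays did not overlap.

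Other genes of the lysosome were examined by list. The counts stand beside 10.1% of all genes called lower and 8.79% higher in the dedifferentiated cells. In the ES cells these shares were 10.4% and 8.85%. Of 22 measured further hydrolases and their cofactors, 6 fell and 0 rose in each comparison, with medians of -0.60 and -0.35, and in limma's test 3 and 5 were higher at an unadjusted p under 0.05. Ggh, a gamma-glutamyl hydrolase, differed by -1.88 and -2.29, and Acp2, the lysosomal acid phosphatase, by -1.67 and -2.49. Of 22 further membrane proteins 4 rose and 5 fell in the dedifferentiated cells, and 3 rose and 6 fell in the ES cells. Scarb2, the receptor that carries glucocerebrosidase to the lysosome, was 10.61, 10.52 and 10.74 in the fibroblasts against 8.48 on each dedifferentiated array and 8.64, 8.95 and 9.0 in the ES cells, differences of -2.14 and -1.76. Sidt2 fell by 1.54 and 1.32 log2 units and Cd63, a tetraspanin, by 1.17 and 1.44. Ctns, the cystine exporter, went the other way, with 6.58, 6.52 and 6.54 in the fibroblasts and 8.22, 8.35 and 8.42 in the dedifferentiated cells. It rose by 1.78 and stood 1.16 above the ES cells, also called. Cln6, a membrane protein of the endoplasmic reticulum, rose by 1.14 and 1.62. Cd68 and Laptm5, both known best from macrophages, were higher in both groups than in the fibroblasts, Cd68 by 1.05 and 1.75 and Laptm5 by 1.02 and 1.76, while 8 of the 17 macrophage markers were lower in each.

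The proton pump that acidifies the lysosome had medians near 0 (-0.04 and -0.09). Of 22 subunits 3 fell and 0 rose in each comparison, and the share that fell was near that of all genes. At an unadjusted p under 0.05 in limma's test 3 and 5 were higher. Tcirg1, the pump subunit of osteoclasts, was 8.28, 8.38 and 8.52 in the fibroblasts against 6.87, 6.88 and 6.93, and differed by -1.50 and -1.28. Atp6v0a2 fell by 1.06 and 1.38, and Atp6ap1 fell by 1.2 in the dedifferentiated cells and differed by -0.84 in the ES cells, which was not called. Of 16 genes that sort enzymes to the lysosome 2 rose and 1 fell in the dedifferentiated cells and 3 rose and 2 fell in the ES cells. Gga2, an adaptor for mannose 6-phosphate receptors, rose by 1.91 and 1.78, and the sorting receptor Sort1 by 1.06 and 1.37. Ap1s1, a subunit of an adaptor complex, fell by 1.26 and 1.17, and Gnptab, which makes the mannose 6-phosphate tag, fell by 1.26 in the ES cells and differed by -0.78 in the dedifferentiated cells, not called.

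Among 20 genes of the TFEB family and of nutrient sensing at the lysosome, 4 rose and 0 fell in the dedifferentiated cells, with 3 lower at an unadjusted p under 0.05 in limma's test, and 3 rose and 1 fell in the ES cells. Rragb, one of the Rag GTPases that bring mTORC1 to the lysosome, was 3.23, 3.34 and 3.41 in the fibroblasts, 7.20, 7.15 and 6.97 in the dedifferentiated cells and 6.05, 6.09 and 6.29 in the ES cells. Rragd, another Rag GTPase, was 4.79, 4.72 and 4.66, then 7.72, 7.61 and 7.60, and then 6.62, 6.38 and 6.49. No arrays of these genes overlapped between the groups. Rragb rose by 3.78 and 2.82, Rragd rose by 2.92 and 1.78, and Rragd was 1.14 higher in the dedifferentiated than in the ES cells, which passed the rule. On the fibroblast arrays Rragb was at the low end of the scale, as Ctsk, Ctss and Ctso were in the other groups, so that its differences may likewise be understated. Tfec, a relative of Tfeb, fell by 1.72 in the ES cells and differed by -0.73 in the dedifferentiated cells, not called.

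Of 27 autophagy genes 2 rose and 8 fell in the dedifferentiated cells, and 2 rose and 6 fell in the ES cells. The 2 that rose in each were Ulk1, a kinase that starts autophagy, by 1.93 and 1.94, and Atg14, a subunit of a lipid kinase complex, by 1.60 and 1.72. Ulk2, the relative of Ulk1, fell by 2.2 and 1.85. Wipi1 fell by 2.04 and 1.41, and Uvrag by 1.85 and 1.68. Stx17, the syntaxin of autophagosome fusion, was lower in the dedifferentiated than in the ES cells by -1.05, which passed the rule. Among 9 inhibitors of the cathepsins 1 fell in each comparison. This was Cst3, the secreted cystatin C, which fell by 1.44 and 1.62. The median log2 level over the 9 inhibitors was low, at 3.07 in the fibroblasts, 2.97 in the dedifferentiated cells and 3.04 in the ES cells. Of 10 cathepsins that are restricted to single tissues, such as placenta or lymphocytes, 0 were called in any comparison. In limma's test 1 passed an unadjusted p under 0.05 against the fibroblasts in the dedifferentiated cells, 2 did so in the ES cells and 1 between dedifferentiated and ES cells. The gene with the smallest p against the fibroblasts was Ctsw, of cytotoxic lymphocytes, with log2 differences of 0.41 (limma adjusted p = 0.0211) and 0.40 (limma adjusted p = 0.0217). The mean log2 level over these 10 cathepsins was 3.26 to 3.42 on the 9 arrays, at the low end of the scale. Differences may be understated there, so the lack of calls says little about these genes.

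**Figure D5:**
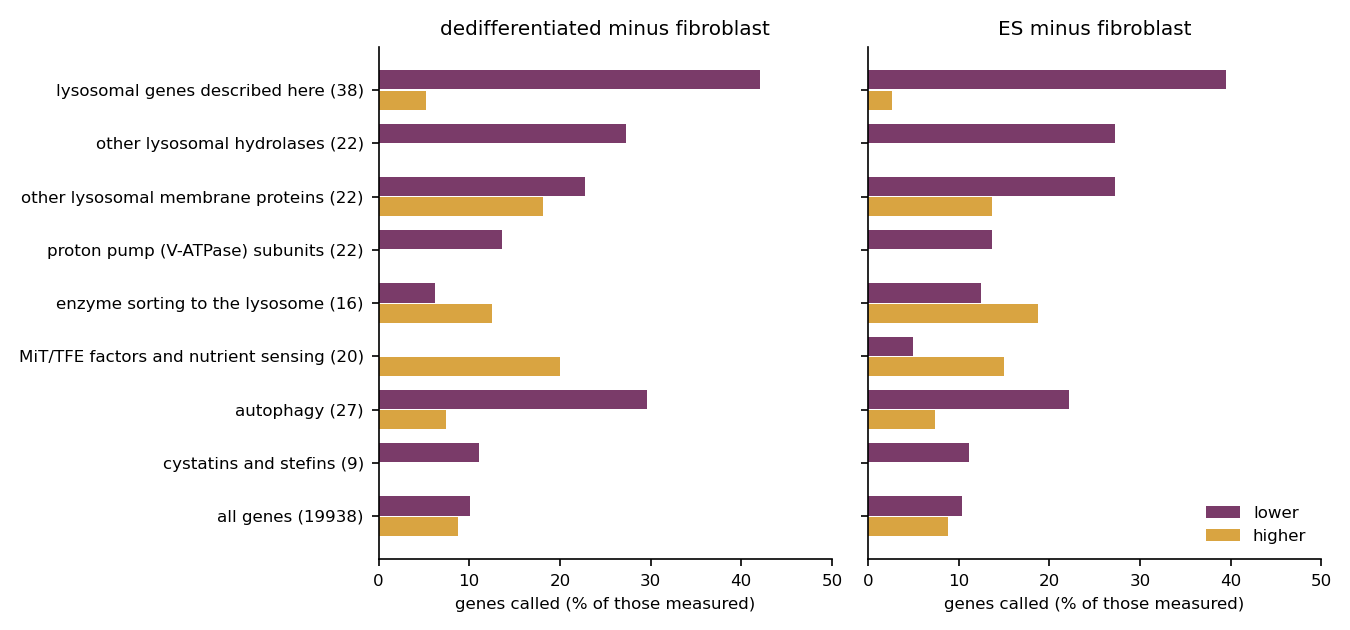
Share of genes called lower and higher in 8 lists of lysosomal and autophagy genes, as a percentage of the genes measured, for dedifferentiated cells and for ES cells against fibroblasts, with the number measured in brackets and all 19938 genes at the bottom. Among the lists plotted, which leave out the cell type markers and the cathepsins of single tissues, the lysosomal genes described here have the longest lower bars (42.1% and 39.5%). The nutrient-sensing list and the enzyme-sorting list have their longer bar on the higher side in both panels.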

How the data were processed

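Expression was measured on 9 one-colour arrays, 3 per group. Per the submitters' processing notes the authors used Affymetrix Expression Console 1.1 with RMA, and the deposited values are on the log2 scale. RMA subtracts background, equalises the distribution of the arrays and summarises probes, so it compresses low values and removes differences in total RNA per cell. The genome build is not given in the sources used here. Array medians over the 35557 rows lay between 4.65 and 4.86, and no 2 arrays held identical values. Correlations between arrays of 1 group were 0.9875 to 0.9946. The number of arrays limits the precision.

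The platform annotation gave the gene names: 21789 rows carry 1 symbol, 1621 several and 12147 none here, and only the first kind was used. The brightest row of each gene was kept, which left 19938 genes. limma 3.58.1 in R 4.3.3 (lmFit and eBayes, all 9 arrays in 1 fit) gave differences, 95% intervals and p-values with Benjamini-Hochberg adjustment over all genes. A gene was called at an adjusted p under 0.05 and a difference of at least 1 log2 unit. The scripts were tested on simulated data. Genes named outside the members were the 2 called genes with the largest rise and fall of each list in each comparison, or, without a call, the gene of smallest p; from the marker lists those with the largest differences and the defining markers were eligible. The members and lists were chosen with earlier results of these data known. Alternatives were other normalizations, filters, thresholds, variance models, samples in the fit and leaving out each array. The labels number the replicates 1 to 3 in each group. A comparison of cathepsin protein sequences was not made.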

Additional observations from a re-analysis of the deposited data

How the results depend on the processing

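Over 20 settings and 114 member comparisons, 2253 of 2268 values kept their side of the rule, 8 lost the call and 7 gained it. Of the values called in the main fit 0 reversed, and the direction of uncalled values was not checked. The settings that changed only a threshold of the rule, in the adjusted p or the minimum difference, are not counted here. The exceptions are Ctsz, Grn, Lgmn, Naglu, Npc1, Npc2 and Ctsh: a further quantile normalization gave -0.92 for Ctsz and 1.05 for Lgmn in the ES cells, median centring gave -1.01 for Npc2 in the dedifferentiated cells, array weights gave 0.91 for Ctsh between dedifferentiated and ES cells, and the other values stand beside the genes. Centring each array on its median moves the median of all genes from 0.01 to -0.11 in the dedifferentiated cells and from 0.02 to -0.10 in the ES cells.

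Against fibroblasts in the dedifferentiated cells, median centring left 1 member higher and a member median of -0.79. The median was -0.54 among genes above the median level and -0.54 where a gene had to reach 6 in the mean of some group. The adjusted p alone gave 7 members higher and 25 lower, and 4977 and 4468 of all genes. All rows in place of genes gave 3056 higher. In the ES cells a further quantile normalization gave 3 members higher and a median of -0.48, array weights gave 2 higher, and median centring gave a median of -0.70. The adjusted p alone gave 7 and 27 members and 5203 and 4570 of all genes, and all rows gave 2900 higher. Leaving out 1 array gave 1 to 2 members higher. Between dedifferentiated and ES cells array weights gave 0 members higher and leaving out 1 array 0 to 1. There the adjusted p alone gave 3 and 9 members and 2236 and 2003 of all genes, and all rows gave 443 higher and 190 lower. Counts over rows are not counts of genes.

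The replicate block, with the number in the labels as a block, left the member counts at 16 and 2 in the dedifferentiated cells, 15 and 1 in the ES cells, and 1 and 0 between them. Same-numbered arrays did not deviate together (-0.20 to 0.25, beside -0.24 to 0.32 for other pairs). The 3 arrays a group limit the precision of small differences.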
